A study of Mus musculus with 2 samples.

Results

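Cones carrying a substantial amount of medium-wave opsin were selected from single retinal cells by their transcripts. Barcodes entered when they held 300 genes or more and when no more than 20% of their unique molecular identifiers (UMIs, the counted transcripts) were mitochondrial. A barcode was called a cone where Arr3, Opn1sw, Opn1mw, Gnat2, Pde6h and Pde6c together made up at least 0.8% of its UMIs. It was typed where Opn1sw and Opn1mw together had at least 10 UMIs, and it entered the group, here called medium-wave cones, where Opn1mw gave more than 20% of those opsin UMIs. This left 570 of 22291 kept barcodes and of 23625 deposited ones. Of these, 133 came from the library labelled Muller and 437 from the library labelled MullerControl. The comparators were the 202 and 394 typed cones with an Opn1mw share of 20% or less, here called short-wave-dominated cones.

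Both libraries were made from retinas of mice with the allele Gt(ROSA)26Sortm9(CAG-tdTomato)Hze, a tdTomato reporter that depends on Cre recombinase, on the background that the labels call B6.Cg. The mice were 14 weeks old and had received an AAV vector 8 weeks earlier. Reporter-positive cells were 4.9% of the suspension for the Muller and 10% for the MullerControl library; they were sorted, and 27000 cells were loaded for each 3′ UMI library. Muller is treated here as the test library, given the other one's name. The labels give neither the genes nor the promoter in the viruses, nor the sex or number of the mice, and each group was 1 library. All cones came from sorted suspensions, and whether a given cone carried the reporter was not analysed here.

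Cones are the photoreceptors of daylight and colour vision. A mouse cone can make a short-wave opsin, encoded by Opn1sw, and a medium-wave opsin, encoded by Opn1mw, in proportions that vary with its place in the retina: medium-wave opsin prevails in dorsal cones, while most ventral cones make mainly short-wave opsin and many cones make both. Thyroid hormone receptor beta, encoded by Thrb, is needed for the medium-wave opsin in mice. Downstream of either opsin, a cone transducin (Gnat2) and a cone phosphodiesterase (Pde6c and Pde6h) carry the light signal, and cone arrestin (Arr3) ends it.

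The promoter windows of both opsin genes are shown because their transcripts sort the cones, and those of Nr2f2 and Samd7 because these regulators differed between the cone groups below. Each window runs from 250 bases before to 50 bases after the RefSeq start on GRCm38.p6. Capitals mark TAATCC or its reverse GGATTA, the core bound by homeodomain factors such as Otx2 and Crx, and AGGTCA or its reverse TGACCT, the half-site of nuclear receptors.
Opn1mw, chrX:74127216-74127515, plus strand: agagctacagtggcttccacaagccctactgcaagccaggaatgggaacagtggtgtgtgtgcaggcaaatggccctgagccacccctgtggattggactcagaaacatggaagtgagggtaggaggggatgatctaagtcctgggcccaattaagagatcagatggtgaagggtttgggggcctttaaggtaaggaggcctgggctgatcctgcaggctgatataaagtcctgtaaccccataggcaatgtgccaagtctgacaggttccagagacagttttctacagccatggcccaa
Opn1sw, chr6:29380464-29380763, minus strand: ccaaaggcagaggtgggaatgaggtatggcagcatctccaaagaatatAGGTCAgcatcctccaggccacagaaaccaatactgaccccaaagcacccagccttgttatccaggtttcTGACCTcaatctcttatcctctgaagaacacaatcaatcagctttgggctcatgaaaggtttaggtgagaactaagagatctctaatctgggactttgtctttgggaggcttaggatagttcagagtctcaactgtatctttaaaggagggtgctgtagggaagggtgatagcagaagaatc
Nr2f2, chr7:70366697-70366996, minus strand: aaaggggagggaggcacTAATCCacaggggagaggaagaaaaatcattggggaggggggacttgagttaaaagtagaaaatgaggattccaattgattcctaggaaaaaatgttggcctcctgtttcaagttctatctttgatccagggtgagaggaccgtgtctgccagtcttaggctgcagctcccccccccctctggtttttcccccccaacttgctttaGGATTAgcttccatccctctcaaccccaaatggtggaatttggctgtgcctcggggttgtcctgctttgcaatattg
Samd7, chr3:30746043-30746342, plus strand: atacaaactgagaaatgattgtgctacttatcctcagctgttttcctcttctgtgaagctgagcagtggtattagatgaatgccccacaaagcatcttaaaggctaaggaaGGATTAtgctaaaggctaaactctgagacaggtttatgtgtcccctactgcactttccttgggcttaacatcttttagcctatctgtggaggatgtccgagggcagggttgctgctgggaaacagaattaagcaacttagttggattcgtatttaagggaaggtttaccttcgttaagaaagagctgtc
The Opn1sw window held 2 nuclear receptor half-sites, which began 202 and 132 bases before the start, and the Opn1mw window held neither motif. The homeodomain core stood 233 and 27 bases before the Nr2f2 start and 139 bases before the Samd7 start. On both strands, TAATCC occurred in 7.06% and AGGTCA in 16.3% of 32851 RefSeq windows of the same length. A match is a stretch of letters, not a measured binding site.

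The opsin share of a medium-wave cone was usually near its upper end. Opn1mw exceeded 80% of the opsin UMIs in 93 of the 133 members of the Muller library (69.9%) and in 305 of the 437 of the MullerControl library (69.8%). It was the only opsin counted in 78 and 250 of them. Cones that mixed the opsins, with an Opn1mw share above 20% and up to 80%, numbered 40 and 132, or 11.9% and 15.9% of all typed cones. These shares describe the values by which the cells were chosen and carry no test.

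**Figure D1:**
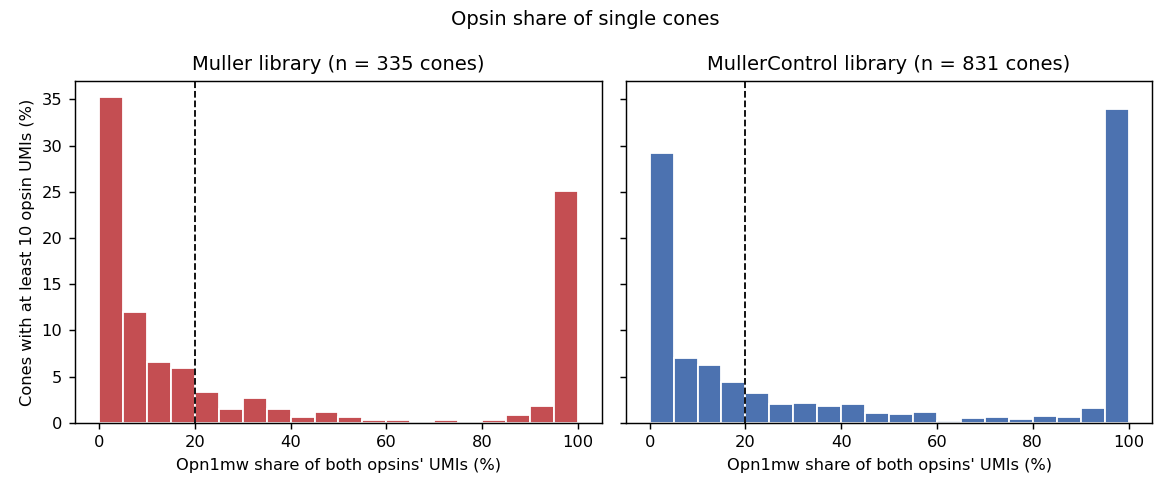
Share of Opn1mw in the UMIs of both cone opsins (x axis, percent) for the 335 and 831 typed cones of the Muller and MullerControl libraries, as percent of typed cones per bin of 5 percentage points (y axis). The dashed line at 20% separates short-wave-dominated from medium-wave cones; the tallest bars stand at both ends of the axis, and few cones lie between 50% and 80%.

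The threshold cut through a stretch that held cones on both sides. The lowest shares inside were 20.7% and 20.3%, and the highest outside was 20% in either library. Between 20% and 25% lay 9 and 23 cones, and between 15% and 20% lay 22 and 41. Summed over the members, Opn1mw stood at 6814 CPM (counts scaled to a fixed total of UMIs) in the Muller library (95% Poisson interval 6593 to 7042) and at 8411 CPM (8284 to 8540) in the MullerControl library. Short-wave-dominated cones held 976 and 759 CPM. Opn1sw was counted in 55 members (41.4%) and 187 members (42.8%), at 2855 and 2797 CPM over all members, against 18274 and 16890 CPM in the short-wave-dominated cones.

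Both opsins also had UMIs in other cells. Rods, which should lack cone opsins, were taken as 5736 and 7164 non-cone barcodes chosen by their rod transcripts. Opn1mw had a UMI in 1.99% and 2.97% of them, at 17.0 and 22.8 CPM, and Opn1sw in 4.60% and 4.83%, at 43.0 and 44.0 CPM. The median rod had 955.5 and 1399 UMIs, against 3416 and 4301 in a medium-wave cone, so the shares of cells are not at equal depth. These values are a description, since rods were taken among barcodes under the cone limit and cones were chosen by these genes.

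Both opsins together took up less of the transcriptome as the Opn1mw share rose. Their summed level was 19643 and 19239 CPM in cones without an Opn1mw UMI, 16344 and 15357 CPM at shares above 20% up to 50%, and 7253 and 9657 CPM in cones with Opn1mw alone. Arr3 ran the other way, at 3127 and 3547 CPM in medium-wave cones against 2028 and 1967 CPM in short-wave-dominated ones. Gnat2, at 3947 and 3924 against 3820.3 and 3729.9 CPM, lay close together in the 4 sums. All of these are genes of the selection rule and were not tested.

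Genes outside the rule also marked the selected barcodes as cones. Against all non-cone barcodes, the 6 rule genes led the list of enriched genes. Next came Agr2, a disulfide isomerase, at 234 and 324 CPM against 0.625 and 2.17 CPM, and Gngt2, the cone transducin gamma subunit, at 2677 and 3274 CPM against 128 and 128 CPM. Cngb3, a subunit of the cone cyclic nucleotide-gated channel, stood at 515 and 493 CPM against 30.1 and 17.5 CPM.

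Medium-wave cones were somewhat deeper than their comparators. The median UMI count was 3416 and 4301, against 2754 and 3485.5 in short-wave-dominated cones. Mitochondrial UMIs had medians of 3.23% and 3.07% against 3.23% and 3.92%, and Malat1, a nuclear transcript, 6.06% and 6.59% against 5.75% and 6.28%. Thinned to 1000 UMIs, the median cell showed 687 and 684 genes against 669 and 674. The libraries shared 40 barcode sequences; of the members, 2 had a barcode that also occurs in the other library, and 0 were members in both. Cells among the highest doublet scores made up 11.3% and 11.4% of the members against 10.4% and 17.0% of the comparators, and the rule removed none of them.

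The comparison of medium-wave with short-wave-dominated cones asked how far cones that differ in opsin differ in the rest of their transcripts. UMIs were summed per library and cone group, and the 4 sums were tested with edgeR's quasi-likelihood test with the library as a block. Of 9004 genes tested outside the rule, 338 (3.75%) had a Benjamini-Hochberg adjusted p under 0.05, of which 178 (1.98%) were higher and 160 (1.78%) lower in medium-wave cones. The direction was the same in both libraries for 335 of them. That is no separate check, since the calls came from the same 4 sums and favour genes on which the libraries agree. Of the 338 genes, 138 differed at least 2-fold. The median log2 fold change over all genes tested was -0.00074. The fit had 1 residual degree of freedom and borrowed its spread across genes, so the count moved with the method: DESeq2 called 36 genes and a fit without a filter on low counts 29, all of them among the 338. A total of 19 genes, 9 higher and 10 lower, were called in each of the 12 fits of this comparison that were run.

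Among the 12 genes with the largest increases, 10 belong to phagocytes and trace back to 2 cells. Among them were Trem2, C1qa, C1qb, C1qc, Tyrobp, Ly86, Rgs10, Fcer1g and Ctss, which serve complement, phagocyte receptors and lysosomes in microglia. The microglial marker list of 10 genes summed to 667 and 325 CPM in medium-wave cones against 22.0 and 28.3 CPM in short-wave-dominated ones. In the Muller library 1 barcode held 334 of the 350 microglial UMIs of the members (95.4%), and in the MullerControl library 1 barcode held 588 of 644 (91.3%). These barcodes had 8029 and 15892 UMIs, an Opn1mw share of 100% and 98.9% and top doublet scores. With both left out, a setting chosen after seeing the data, the list fell to 31.0 and 28.5 CPM. That fit called 401 of 8974 genes (4.47%), of which 205 (2.28%) were higher and 196 (2.18%) lower, and 324 of the original 338 were among them. It gave a gene's own spread between the sums no weight, unlike the main fit, so its count is not on equal terms with 338. Values below are from all members unless the 2 barcodes are said to be left out.

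**Figure D2:**
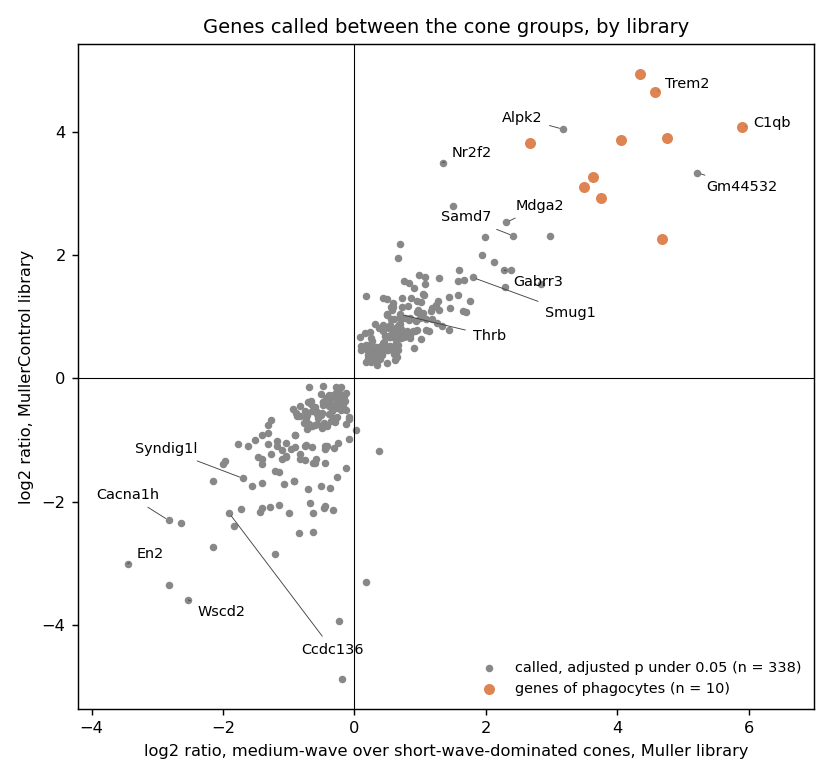
Log2 ratio of medium-wave over short-wave-dominated cones in the Muller library (x axis) and in the MullerControl library (y axis) for the 338 called genes, from CPM with 1 count added to each sum. Nearly all points have the same sign on both axes, which the choice of called genes favours. The 10 orange points are the phagocyte genes carried by 1 barcode in each library.

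Transcriptional regulators of cone fate differed in both directions. Thrb stood at 242 and 342 CPM in medium-wave cones of the Muller and MullerControl libraries and at 149 and 166 CPM in short-wave-dominated cones. It was higher in both libraries, and members in the MullerControl library were the highest of the 4 sums, with a log2 fold change of 0.94 (SE 0.11, adjusted p = 3.19e-07, edgeR's quasi-likelihood test). Nr2f2, an orphan nuclear receptor of the COUP-TF family, stood at 32.4 and 50.5 CPM against 11.8 and 3.86 CPM, a log2 fold change of 2.89 (SE 0.37, adjusted p = 1.22e-06). Gm44532, a long noncoding RNA on the same strand of chromosome 7, 54179 bases away from Nr2f2 with 1 annotated gene between them, stood at 61.0 and 90.5 CPM against 0 and 8.35 CPM. Its log2 fold change was 3.73 (SE 0.31, adjusted p = 3.68e-10). Nr2f2 and Gm44532 passed the filter on low counts through their member sums. Without that filter, edgeR's quasi-likelihood test gave adjusted p of 0.107 for Nr2f2 and 0.0365 for Gm44532. Both loci overlap the annotated gene B130024G19Rik on the opposite strand.

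Samd7, which in mouse photoreceptors acts with Polycomb proteins to silence genes, stood at 133 and 137 CPM against 23.6 and 27.0 CPM. This was a log2 fold change of 2.37 (SE 0.19, adjusted p = 1.81e-10). Rods held it at 166 and 215 CPM, while rod marker transcripts were lower in medium-wave cones than in their comparators. Otx2, a homeodomain factor of photoreceptor fate, fell from 194 and 210 CPM in short-wave-dominated cones to 131 and 134 CPM, with a log2 fold change of -0.63 (adjusted p = 0.000713). Casz1, a zinc finger factor, changed by -0.59 (adjusted p = 0.000926). Vax2, a homeobox gene of the ventral retina, stood at 24.8 and 11.6 CPM against 30.4 and 35.99 CPM, a log2 fold change of -1.24 (SE 0.31, adjusted p = 0.0136), and the log2 ratio was -0.27 within the Muller library and -1.59 within the other. Of these regulators, DESeq2 called Samd7 alone; its adjusted p was 0.107 for Thrb and 0.221 for Nr2f2, and Gm44532, Otx2, Casz1 and Vax2 were not called either.

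Of the photoreceptor fate list, 18 of 20 genes were tested, 3 rose (Thrb, Neurod1 and Samd7), 2 fell (Otx2 and Casz1), against 1.98% higher and 1.78% lower among all genes tested, and the median log2 fold change was -0.21. Crx, Rxrg and Sall3 did not pass the test, with log2 fold changes of 0.09, -0.36 and -0.50. Of 22 dorsoventral patterning genes, only Nr2f2 and Vax2 were abundant enough to be tested. Nr2f1 and Tbx2 had too few UMIs, at most 7.62 CPM in any of the 4 sums. Of 14 tested genes of thyroid hormone and retinoid signalling, Thrb alone was called, and the list's median was 0.05. Of 5 tested genes on a list of cone subtype genes, Thrb and Nr2f2 were higher and Ccdc136 was lower.

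Genes of varied roles were also higher in medium-wave cones. Smug1, a uracil-DNA glycosylase of base excision repair, stood at 198 and 208 CPM against 55.7 and 66.2 CPM, a log2 fold change of 1.69 (SE 0.14, adjusted p = 3.68e-10). Fzd10, a Wnt receptor at 1.10 and 1.24 CPM in rods, stood at 149 and 151 CPM against 49.0 and 50.1 CPM, a log2 fold change of 1.58 (SE 0.16). Both were among the 19 genes called in all 12 fits, as were Tshz2 at 1.16, Stn1 at 1.26, Ppa1 at 1.14, Gzmm at 0.90, Cst3 at 0.58 and A930001M01Rik at 1.62. Without the phagocyte barcodes, the 12 largest increases were those of Alpk2, Gm44532, Nr2f2, Cntf, Cfap45, Gm10184, Mdga2, Samd7, D430019H16Rik, Apela, D630023F18Rik and Gabrr3. Mdga2, a synaptic adhesion protein, stood at 40.0 and 51.5 CPM against 6.76 and 8.35 CPM. Gabrr3, a rho subunit of GABA receptors, stood at 80.04 and 77.8 CPM against 15.2 and 22.5 CPM. Alpk2, a kinase gene, had 13.3 and 20.7 CPM against 0 and 0.643 CPM, so its fitted log2 fold change of 5.03 (SE 0.80) rests on 1 comparator UMI. DESeq2 called Gabrr3 but neither Mdga2 nor Alpk2. Mdga2 and Alpk2 passed the filter on low counts through their member sums. Without it, their adjusted p was 0.0480 and 0.0548 by edgeR's quasi-likelihood test.

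Lower in medium-wave cones was, with the smallest p of all genes tested, Ccdc136, which encodes a coiled-coil protein. Its levels were 366 and 317 CPM against 1380 and 1438 CPM, a log2 fold change of -2.10 (SE 0.08, adjusted p = 4.58e-19). On GRCm38 it is the next gene to Opn1sw on chromosome 6, at 29396309 to 29426994, with a gap of 7840 bases and 0 genes between them. The gap is counted from the GENCODE end of Opn1sw at 29388468. The RefSeq window shown above, at 29380464 to 29380763, lies farther from Ccdc136. Opn1sw lies on the opposite strand. In rods Ccdc136 stood at 80.7 and 28.8 CPM.

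The 12 largest decreases were those of Epha8, Wscd2, En2, C1ql1, A930009A15Rik, Tac1, Mast4, Dnaic1, Cacna1h, B3gnt2, Gm27032 and Ccdc136. En2, an engrailed homeobox factor, stood at 3.81 and 7.58 CPM against 60.8 and 64.3 CPM, a log2 fold change of -3.22 (SE 0.30, adjusted p = 2.13e-09). Cacna1h, a T-type calcium channel, stood at 15.2 and 24.8 CPM against 120 and 124 CPM, a log2 fold change of -2.45 (SE 0.19, adjusted p = 1.87e-10). Wscd2 stood at 5.72 and 2.53 CPM against 42.2 and 35.99 CPM. In each of these genes both member sums lay below both comparator sums. C1ql1, a synapse organiser on the amacrine marker list, was a Muller library result: 9.53 against 69.2 CPM there, and 0 against 1.93 CPM in the MullerControl library. Dnaic1 and B3gnt2 rested mostly on the MullerControl library, with log2 ratios of -3.93 and -4.87 there and -0.24 and -0.19 in the Muller library. Epha8, an ephrin receptor, had 0 and 1.52 CPM against 11.8 and 19.9 CPM. DESeq2 called En2, Cacna1h and Wscd2, and neither C1ql1 nor Epha8. Several of the 12 genes, among them Epha8, Wscd2, En2 and Tac1, passed the filter on low counts through the comparator sums. Without it, the adjusted p of these named genes was 0.0656, 0.0322, 0.0286 and 0.0906 by edgeR's quasi-likelihood test.

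Of the 20 tested phototransduction genes outside the rule, 6 were lower in medium-wave cones and 0 were higher, against 1.78% and 1.98% of all genes tested, with a list median of -0.19. Among them were Guca1a and Guca1b, the calcium sensors of guanylate cyclase, Gucy2e, the cyclase itself, Grk1, the opsin kinase, and Gnb3, the cone transducin beta subunit. Guca1b stood at 170 and 176 CPM against 333 and 388 CPM, a log2 fold change of -1.10 (SE 0.10, adjusted p = 2.42e-09). Guca1a stood at 4068 and 4723 CPM against 5491 and 5899.5 CPM, a log2 fold change of -0.38 (SE 0.06, adjusted p = 1.83e-05), and Gnb3 changed by -0.40. DESeq2 called these 3 of the 6 genes.

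Transcripts of rods moved the same way as several of these genes. The rod marker list summed to 13084 and 14525 CPM in medium-wave cones against 16701.5 and 16849 CPM, with 10 of 10 markers counted in each group. Of its 10 genes 3 fell, among them Sag and Pde6g with log2 fold changes of -0.34 and -0.25, against 1.78% of all genes tested, and the list's median was -0.24. DESeq2 called 1 of the 3, Sag. Guca1b was at 1761 and 2189 CPM in rods, above its level in either cone group, whereas Gnb3 was at 365 and 229 CPM in rods, below it. The part of rod transcripts in the lower phototransduction genes was not tested.

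Of 19 tested outer segment genes 2 were higher and 3 lower, against 1.98% and 1.78% of all genes tested. Impg1, a proteoglycan of the matrix around photoreceptors, rose by 0.73 and Cdhr1, a photoreceptor cadherin, by 0.40, while Prph2, a disc rim protein, Rp1, an axonemal protein, and Pcdh15 fell by 0.22, 0.30 and 0.29. Impg1 stood at 385 and 391 CPM against 260 and 220 CPM. The list's median was -0.0006. Among 24 ribbon synapse genes, Syt1, the calcium sensor of vesicle release, was higher at 1770.3 and 1639 CPM against 1257 and 1195 CPM, a log2 fold change of 0.46 (SE 0.07, adjusted p = 9.19e-06), Cabp4 was higher by 0.34 and Elfn2 was lower. DESeq2 called Syt1 and 0 of the outer segment genes.

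Of 24 tested genes of glycolysis, lactate and creatine metabolism, 7 were higher and 1 was lower, against 1.98% and 1.78% of all genes tested, and the list's median was 0.09. Ldhb, a lactate dehydrogenase subunit, had the largest change, at 244 and 209 CPM against 101.3 and 111 CPM, a log2 fold change of 1.01 (SE 0.13, adjusted p = 9.01e-07). Ckmt1, a mitochondrial creatine kinase, stood at 772 and 736 CPM against 522 and 454 CPM, a log2 fold change of 0.64 (SE 0.08, adjusted p = 9.72e-07). Aldoc, Ldha, Slc16a1, Bsg and Ckb were higher by 0.21 to 0.46. Hk2, the hexokinase, was lower, at 196 and 376 CPM against 350 and 513 CPM, with a log2 fold change of -0.56. Of these 8 genes, DESeq2 called Ckmt1 only.

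The remaining lists held 0 or 1 call each with all members, against 3.75% of all genes tested. With so few genes per list, a single call or none is not a result about the list. Of 9 visual cycle genes and 11 immediate early and stress genes, 0 were called by edgeR's quasi-likelihood test or DESeq2; 3 and 0 of them had an unadjusted p under 0.05. Without the phagocyte barcodes, the visual cycle gene Rdh11, a retinol dehydrogenase, was called higher, with a log2 fold change of 0.90 (adjusted p = 0.0255 by edgeR's quasi-likelihood test). Of 13 mitochondrial transcripts mt-Co1 was lower by a log2 fold change of -0.19, and of 7 nuclear RNAs Gm42418 was lower by -0.18. B2m was the single call among 6 interferon and antigen presentation genes, and it was too rare to be tested without the phagocyte barcodes. Of 9 bipolar markers, Cabp5 was lower, at 137 and 33.4 CPM against 248 and 192 CPM. Of 8 amacrine markers, C1ql1 was the only call. Of 6 Müller, 2 horizontal and 1 ganglion cell markers tested, 0 were called by edgeR's quasi-likelihood test or DESeq2, with 2, 0 and 0 at an unadjusted p under 0.05. The Müller marker Apoe, a lipoprotein gene, was called lower without the phagocyte barcodes, with a log2 fold change of -0.76 (adjusted p = 2.17e-06 by edgeR's quasi-likelihood test), and also after thinning. With all members its levels went opposite ways in the libraries, at 249.6 against 202.7 CPM in the Muller and 61.7 against 154 CPM in the MullerControl library. Without the phagocyte barcodes they still did, with log2 ratios of 0.31 and -1.63, and that fit gave this disagreement no weight in the p-value. The lower level of Apoe was thus a MullerControl library result. Pou4f2 and Pou4f3, which mark ganglion cells, had 0 UMIs in the 4 sums. Of all 11 ganglion markers, 5 and 7 had UMIs in members of the Muller and MullerControl libraries, and 6 and 6 in the comparators. A UMI of the list was in 21.8% and 19.2% of members against 18.8% and 10.9% of comparators, not at equal depth. Of the pigment epithelium markers, 0 were abundant enough to be tested.

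Within the medium-wave cones, genes changed at different opsin shares. Ccdc136 fell stepwise along the share: in the Muller library it was at 1533 CPM at shares up to 5%, 1167 CPM up to 20%, 1023.5 CPM up to 50%, 379 CPM up to 80% and 150 CPM above 80%. In the MullerControl library the same bins held 1552, 1255, 969, 593 and 76.3 CPM. The bins on either side of the threshold lay close together, and most of the fall lay inside the group. Syndig1l, a transmembrane protein related to a synapse inducer, was at 160 and 167 CPM at shares above 20% up to 50%, and at 10.5 and 9.36 CPM above 80%.

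En2 had 2 and 15 UMIs among members up to 50% and 0 UMIs above 80%, where 3 UMIs would have been 7.87 and 2.16 CPM. Thrb had its step lower down. It was at 78.4 and 89.7 CPM at shares up to 5%, at 246 and 288 CPM from there to 20%, and at 236 and 369 CPM above 80%. Smug1 stood near its comparator level until 50%, at 64.0 and 54.8 CPM, and at 249 and 267 CPM above 80%. Gm44532 was at 8.00 and 8.77 CPM up to 50% and at 81.3 and 125 CPM above 80%. The bin above 50% up to 80% held only 6 and 31 cones.

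**Figure D3:**
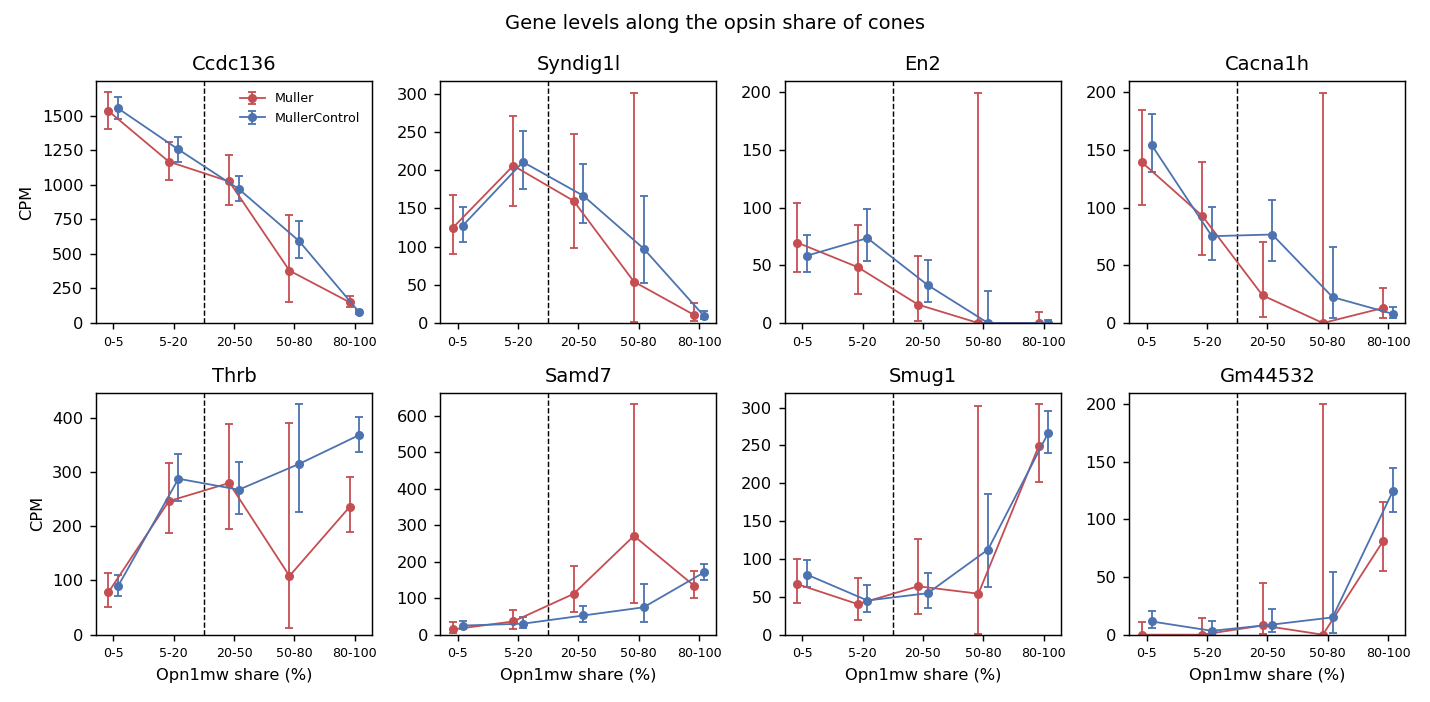
Levels of 8 genes (y axis, CPM) in cones grouped by Opn1mw share (x axis, percent), for the Muller (red) and MullerControl (blue) libraries; bars are exact Poisson 95% intervals, which cover counting error only, and the dashed line marks the 20% threshold. Ccdc136, Syndig1l, En2 and Cacna1h are low above 80%, Thrb is already raised between 5% and 20%, and Smug1 and Gm44532 are raised above 80%.

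A test within the group, added after seeing the opsin shares, set members above 80% against members at 20% to 80%, without the phagocyte barcodes. They numbered 92 against 40 cells in the Muller library and 304 against 132 in the MullerControl library. By edgeR's quasi-likelihood test with Benjamini-Hochberg adjustment, 15 of 6852 genes (0.219%) passed, 5 higher (0.073%) and 10 lower (0.146%) above 80%. Higher were Gm44532, Smug1, Car8, Pcp2 and Pcp4, and lower were Syndig1l, 5430419D17Rik, Ccdc136, Elfn2, Socs3, Cacna1h, Rtl8a, Kcne2, Guca1a and Sag. Ccdc136 stood at 153 and 77.2 CPM above 80% against 941 and 884 CPM, a log2 fold change of -3.23 (SE 0.18, adjusted p = 8.30e-07). Syndig1l, at 10.7 and 9.47 CPM against 146 and 151 CPM, had -3.95 (SE 0.30, adjusted p = 2.26e-05), and Smug1, at 255 and 269 CPM against 62.7 and 67.9 CPM, had 1.96 (SE 0.20, adjusted p = 0.000239).

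Kcne2, an accessory subunit of potassium channels, did not pass the test between medium-wave and short-wave-dominated cones (log2 fold change -0.04, adjusted p = 0.902), yet was lower above 80%, at 646 and 719 CPM against 1317 and 1154 CPM. It was also low at shares up to 5%, at 615 and 643 CPM, and its highest levels lay in the bins between 5% and 80%. Single cells held much of the Pcp2 and Pcp4 UMIs of all members: 20.7% and 37.3% of Pcp2, a bipolar cell gene, and 20.6% and 41.8% of Pcp4 came from 1 cell in the Muller and MullerControl libraries. DESeq2 called 6 of the 15 genes, and without a filter on low counts 0 passed, with 533 at an unadjusted p under 0.05.

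Medium-wave cones were a smaller part of the Muller library. They made up 1.12% of its kept barcodes (95% Clopper-Pearson interval 0.938% to 1.32%) against 4.20% (3.82% to 4.60%) in the MullerControl library. All cones together made up 3.43% (3.11% to 3.78%) and 9.57% (9.01% to 10.2%). Among typed cones the medium-wave share was 39.7% (34.4% to 45.2%) and 52.6% (49.1% to 56.0%). The intervals did not overlap, but they cover counting error only, and with 1 library per group there is no test.

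The direction of the share held in each other setting tried. With the threshold at 10%, 30% or 50%, the shares were 52.2% against 63.1%, 35.5% against 47.8% and 29.6% against 40.4%. With cones thinned to 2000 UMIs, a setting added later, they were 41.8% and 53.1%. A further 73 and 165 cones had under 10 opsin UMIs and stayed untyped. Those cones held more Opn1mw than Opn1sw UMIs, 271 against 106 in the Muller library and 462 against 353 in the MullerControl library, so the opsin minimum left out medium-wave transcripts more than short-wave ones. The libraries also differed in the sorted fraction and, going by their names only, perhaps in the virus, and these cannot be told apart from the group.

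Between the libraries, few transcripts of medium-wave cones differed 2-fold. Of 6649 genes with at least 50 UMIs, 170 (2.56%) were past 2-fold in the Muller over the MullerControl library, 79 of them higher (1.19%) and 91 of them lower (1.37%). The median log2 ratio was 0.02. These are values of 2 sums and have no replicate check. Opn1mw had a log2 ratio of -0.30 (95% interval -0.36 to -0.25) and Thrb one of -0.49 (-0.78 to -0.22), while Ccdc136 had 0.21 (-0.03 to 0.44).

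When ranking was limited to genes that had 100 or more UMIs in all and reached 50 CPM in a library, the 6 highest ratios belonged to Pcp2, Trnp1, Trpm1, Gng13, Glul and Pcp4, of which Pcp2, Trpm1 and Gng13 are bipolar cell genes. Pcp2 stood at 581 against 51.6 CPM, a log2 ratio of 3.49 (3.17 to 3.83), and Glul, the glutamine synthetase of Müller glia, at 366 against 64.2 CPM, a log2 ratio of 2.51 (2.18 to 2.85). Between 17.4% and 27.1% of the Muller UMIs of these 6 genes came from 1 cell each. All 6 of the bipolar markers measured were at least 2-fold higher, with a median of 2.51. So were 4 of 5 Müller markers, also with a median of 2.51, against 1.19% of the 6649 genes measured. Other lists held such genes too: 3 of 6 nuclear RNAs, 2 of 6 microglial markers and 2 of 11 immediate early and stress genes. Of the amacrine markers 1 of 2 was as high, and of the visual cycle genes 1 of 8. The bipolar median was 0.65 in short-wave-dominated cones and 1.84 in rods, so the excess was also present in other cells of the library. The summed bipolar list was 1363 CPM in the Muller and 202 CPM in the MullerControl members, and in the short-wave-dominated cones it was 868 and 524 CPM. The summed Müller list was 1515 and 529 CPM in the members. What these transcripts contribute to the ratios of single genes was not tested.

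**Figure D4:**
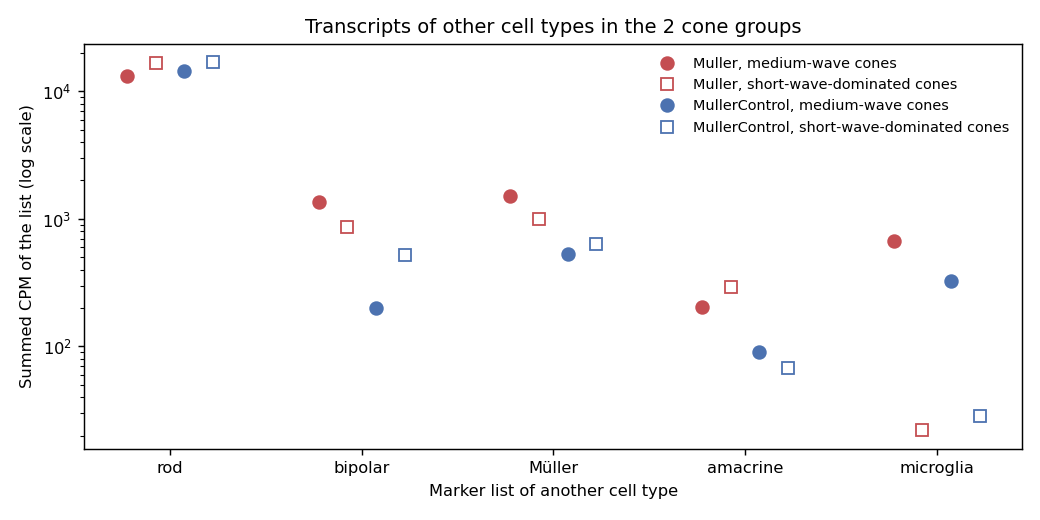
Summed level of the marker lists of other cell types (y axis, CPM, log scale) in medium-wave cones (filled circles) and short-wave-dominated cones (open squares) of the Muller (red) and MullerControl (blue) libraries. Bipolar transcripts are highest in the Muller medium-wave cones and lowest in the MullerControl ones; the microglial level of the filled circles comes mostly from 1 barcode in each library.

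Within the same limits of 100 UMIs and 50 CPM, the 6 lowest ratios were those of Ino80d, Eif2s3y, Gm26917, Ddx3y, Ythdf3 and Gpr162. Eif2s3y and Ddx3y, both Y-linked, stood at 24.8 and 30.5 CPM in the Muller against 73.8 and 76.3 CPM in the MullerControl library, and Xist, the X-inactivation transcript, at 593 against 146 CPM. The log2 ratio of Xist was 2.02 in medium-wave cones, 2.49 in short-wave-dominated cones and 2.01 in rods. The sex of the mice is not in the labels, and a difference in sex cannot be told apart from the group. Ino80d, a chromatin remodelling subunit, stood at 15.2 against 63.2 CPM, a log2 ratio of -1.89 (-3.29 to -1.03), with a ratio of -0.88 in short-wave-dominated cones and -0.01 in rods.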

How the data were processed

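The deposited matrices hold raw UMI counts per gene and barcode, and per the file headers Cell Ranger 4.0.0 made them; the authors' barcodes start at 500 UMIs. Seurat 4.0.5 and the builds mm10 and GRCh38 stand, with no role, in the submitters' processing notes. The libraries held 12316 and 11309 barcodes with 25622379 and 23549118 UMIs, and members held 524766 and 1978661 UMIs. Intervals cover counting error only. The p-values rest on the spread between these sums, which may be technical and was shared across genes. In the main fit the shared spread weighed as 30.953 degrees of freedom. It had infinite weight with the rule genes, phagocyte barcodes or highest Scrublet scores left out. The same held against all other cones, at most 10% mitochondrial UMIs and after thinning. In those fits of the cone groups a gene's own spread did not count. Members, gene lists and rules were chosen with earlier results of these data known.

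UMI sums of members and short-wave-dominated cones per library were tested with edgeR 4.0.16 in R 4.3.3 (filterByExpr, TMM, library block, since both cone groups of a library come from the same animals). The 6 rule genes were left out of the adjustment. DESeq2 1.42.0 was an alternative. Simulated data of 9010 genes for this comparison were drawn with the same spread between sums throughout (dispersion 0.0025743). In them, 22%, 78%, 92% and 98% of genes changed 1.5-, 2-, 3- and 4-fold were recovered, with 8 false calls. Spread that differs from gene to gene, and genes whose UMIs come mostly from 1 cell, were not tested there. The number of false calls in the real sums was not tested. Between libraries, log2 ratios had 1 count added to each sum and no test. Scrublet in scanpy 1.11.5 ranked doublets; its automatic threshold called 2 and 0 cells and so did not work, and an alternative left out the 1130 and 866 highest scores.

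Named genes were the 12 highest and 12 lowest called log2 fold changes with the same direction in both libraries (also without the phagocyte barcodes), up to 4 genes of each list with the largest change, the 6 highest and 6 lowest library ratios among genes with at least 100 UMIs and 50 CPM, and a fixed set with the opsins, Thrb, Nr2f2, Vax2, Ccdc136 and Xist. Genes called within the group or in all 12 fits of the comparison, and list members that were called, were named after their values were seen. Some genes are not reported here. Positions are from GENCODE M21 on GRCm38, which matched 32158 of 32285 gene IDs. Figures were drawn with matplotlib 3.10.9; scipy 1.17.1, pandas 2.3.3 and numpy 2.4.6 ran under Python 3.11.15.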

Additional observations from a re-analysis of the deposited data

Results flagged for a closer look

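Pcp2, a bipolar cell gene, differed between the cone groups in opposite directions in the libraries. In the Muller library it was higher in medium-wave than in short-wave-dominated cones, at 581 against 211 CPM, a log2 ratio of 1.45 (1.16 to 1.77). In the MullerControl library it was lower, at 51.6 against 118 CPM, a log2 ratio of -1.19 (-1.56 to -0.84). Of the UMIs in members, 20.7% and 37.3% came from 1 cell. Glul, a Müller glia gene, showed the same pattern, with 366 against 159 CPM and a log2 ratio of 1.20 (0.84 to 1.58) in the Muller library and 64.2 against 92.5 CPM and -0.53 (-0.88 to -0.17) in the MullerControl library. Its most loaded cell held 27.1% and 13.4%. The difference between the libraries was not tested for either gene, since each library gives 1 value.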

How the results depend on the processing

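The medium-wave share of typed cones kept its order between the libraries in each setting. It left its own interval with the threshold at 10% (52.2% and 63.1%), at 30% in the MullerControl library (47.8%) and at 50% (29.6% and 40.4%). The count of 338 called genes fell to 36 with DESeq2, 29 without a filter, 61 without the replicate block and 110 of 5022 genes with cells thinned to 1000 UMIs; the other settings gave 318 to 492. The 15 genes called within the group became 8 with RLE factors, 0 without a filter (533 at an unadjusted p under 0.05), 9 without the replicate block and 6 with DESeq2. Genes past 2-fold between libraries went from 170 to 590 with at least 20 UMIs and 40 after thinning. Member levels without the highest doublet scores and after thinning were 7476 and 7500 CPM for Opn1mw and 3415 and 3136 CPM for Opn1sw in the Muller library, and 8809 and 8260 CPM and 2881 and 2703 CPM in the MullerControl library. The causes were not tested. None of the named results that were called reversed in the settings run. That is no separate check, since the settings reuse largely the same counts. The genes named by rank had also been picked for the same direction in both libraries. Of 100 named results, 57 of them called, DESeq2 and the fit without a filter each lost 42 calls and the fit without the block 29. A call count with 1 library left out could not be had, since 1 pair leaves no residual degree of freedom. No paired analysis was possible between libraries because each group has 1 library. Genes at low CPM rest on few UMIs in the Muller library, where En2 had 2 in members.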
